A study of Homo sapiens with 6 samples.

Results

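The genes described here are 10 regulators and markers of the colon epithelium, chosen by name from the deposited gene table of 58735 genes. Of these, 6 are genes of intestinal stem cells (LGR5, LGR4, ASCL2, SOX9, PROM1 and CD44) and 4 are factors of differentiation (CDX1, CDX2, HNF4A and ATOH1). All 10 were listed in the table, and 6 of them had a mean of at least 1 FPKM over the 6 libraries. FPKM is the number of sequenced fragments scaled to the length of the gene and the fragments of the library. Levels of different genes can be set side by side on this scale, but their order depends on the length taken for each gene.

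The libraries came from HCT116, a human colorectal carcinoma cell line, whose control cells are labelled as wild type. In the CTR group, 3 libraries were made from cells given a control transfection, and in the miR-8485 group, 3 libraries were made from cells transfected with 50 nM miR-8485 mimics, short synthetic RNAs that act as the mature miRNA. Cells were collected 48 h after transfection, and the study's methods describe the libraries as independent biological replicates, all of 1 line. The sequence and dose of the control transfection were not given in the sources used here. HCT116 is a single cancer line that grows without stroma or a crypt, so the values describe these cells and not the lineages of a tissue. The fragments on listed genes numbered 17473874 to 17888110 in CTR and 17710376 to 18480047 in miR-8485. CTR replicate 1 stood apart from the other controls, with a chi-square per gene of 10.5 and 8.46 against them, whereas the other pairs within a group gave 2.75 to 3.87 and pairs between groups 61.0 to 70.3.

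The lining of the colon is renewed from stem cells at the base of the crypts. WNT signalling keeps these cells dividing. LGR5 and LGR4 are receptors for R-spondins, secreted proteins that raise the number of WNT receptors on the cell surface, and ASCL2 and SOX9 are transcription factors that act downstream of WNT in the crypt. CD44, a receptor for hyaluronan, and PROM1, the membrane protein also called CD133, have been used as surface markers of colorectal cancer stem cells. In the other direction, CDX1 and CDX2 are homeobox factors that set the identity of intestinal epithelium, HNF4A is a nuclear receptor of absorptive cells, and ATOH1 starts the secretory lineage and is held back by Notch signalling.

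A miRNA recognizes mRNAs mainly through bases 2 to 8, its seed. For the mimic these bases are ACACACA, which pair with TGTGTGT in an mRNA. On both the transcripts and the build used here (GRCh38, GENCODE release 44, canonical transcripts), this word was searched on the mRNA strand of the 3′ UTR of each of the 10 genes, counting overlapping copies. SOX9 held 7 copies in its 2029 bases, LGR4 held 2 in 1906 bases and ATOH1 held 1 in 973 bases. The sites follow, written 5′ to 3′ on the mRNA strand, with the copies of TGTGTGT in capitals. They are the stretches of these canonical 3′ UTRs that match the whole word. Shorter matches and other parts of the transcripts were not searched.
SOX9, chr17:72125888-72125916, plus strand, 4 overlapping copies: ccttatatTGTGTGTGTGTGTgggtgtgt
SOX9, chr17:72125904-72125930, plus strand, 3 overlapping copies: tgtgtgggTGTGTGTGTGTtttgacac
LGR4, chr11:27367845-27367866, minus strand, 2 overlapping copies: actacTGTGTGTGTaaccgttt
ATOH1, chr4:93830388-93830410, plus strand, 1 copy: tccatcctTGTGTGTtgcgcact
The windows of the 2 SOX9 runs overlap. The site of LGR4 began at base 6 of its 3′ UTR. The 3′ UTRs of CD44 (3069 bases), CDX2 (2197 bases), HNF4A (3180 bases), PROM1 (1165 bases), LGR5 (1576 bases), ASCL2 (647 bases) and CDX1 (878 bases) held 0 copies. Of the 10675 tested genes with an annotated canonical 3′ UTR, 28.9% held at least 1 copy. Longer 3′ UTRs hold it more often, and among tested genes within 1.25 times the length of SOX9 the share was 38.4%, while for CD44 it was 47.8% and for CDX2 40.6%. A match is a description of the annotated sequence, and which 3′ UTRs the cells use was not measured.

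Of the 6 genes with a mean of at least 1 FPKM, CDX2 rose, SOX9 and CD44 fell, and LGR4, PROM1 and HNF4A were not past the threshold. The test was limma on log2(FPKM + 0.1) across all 12349 genes with a mean of at least 1 FPKM, and a gene was called at a Benjamini-Hochberg adjusted p under 0.05. In that test 59.6% of all genes were called, 29.1% higher and 30.5% lower. A count of 3 called genes among 6 is therefore no larger than the share among genes at large. The 2 groups of libraries did not overlap for the same 3 genes, and for 66.5% of all tested genes (32.5% higher and 34.0% lower). Which genes moved, and which way, is the content of the comparison. The median log2 fold change was -0.30 over the 4 tested stem cell genes and 0.32 over the 2 tested differentiation factors, beside -0.00406 over all tested genes. Each of these medians lies between a gene that was called and one that was not. Without CTR replicate 1 the log2 fold changes were 0.82 for CDX2, -0.68 for SOX9 and -0.57 for CD44, all 3 still called, and 0.01 for PROM1, -0.06 for LGR4 and -0.26 for HNF4A, none of them called. RNA from a bulk culture does not tell fewer cells of a type from less RNA per cell.

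CDX2, on the minus strand of chromosome 13 (27962137 to 27971139 of hg38), is the homeobox factor that marks intestinal and colorectal epithelium. Its level was 16.2, 15.5 and 16.4 FPKM in CTR replicates 1 to 3, and 29.4, 27.0 and 28.3 FPKM in miR-8485 replicates 1 to 3. Every miR-8485 library lay above every CTR library, and the lowest of the first was well apart from the highest of the second. The group means were 16.0 ± 0.486 FPKM (SD, n = 3) and 28.2 ± 1.18 FPKM (SD, n = 3), and limma placed the log2 fold change at 0.81 (95% interval 0.69 to 0.93, standard error 0.05, adjusted p = 1.4e-05), or 1.75-fold. Of all tested genes, 14.1% had a larger absolute log2 fold change. These levels rest on 1155 to 1224 fragments per CTR library and 2016 to 2219 per miR-8485 library.

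SOX9, on the plus strand of chromosome 17 (72121020 to 72126420), is a transcription factor of crypt progenitors and Paneth cells and carries the 2 runs of seed sites shown above. It had 43.6, 47.9 and 46.5 FPKM in CTR, and after the mimic 29.5, 28.2 and 30.4 FPKM. The groups did not overlap. The mean was 46.0 ± 2.23 FPKM in CTR and 29.4 ± 1.14 FPKM in miR-8485 (SD, n = 3 each), and the log2 fold change was -0.64 (95% interval -0.77 to -0.52, standard error 0.05, adjusted p = 4.8e-05 in limma). The level in miR-8485 was 0.640 times that in CTR, and 21.5% of the tested genes had a larger absolute change. SOX9-AS1, which overlaps SOX9 on the other strand, was at most 0.279 FPKM in any library.

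CD44, on the plus strand of chromosome 11 (35138870 to 35232402), has no seed site in its canonical 3′ UTR. Its levels were 32.1, 33.5 and 33.8 FPKM in CTR and 22.4, 22.4 and 23.1 FPKM in miR-8485. Again the groups did not overlap, and the spread within each was small. The means were 33.1 ± 0.946 FPKM (SD, n = 3) and 22.6 ± 0.373 FPKM (SD, n = 3), and the log2 fold change was -0.55 (95% interval -0.65 to -0.45, standard error 0.04, adjusted p = 3.8e-05 in limma). CD44 was the most deeply covered of the 10 genes, with 17977 fragments summed over the CTR libraries and 12478 over the miR-8485 libraries. The value is for the whole gene and does not separate the standard spliced form from those with variant exons. CD44-AS1 on the other strand was between 0.179 and 1.98 FPKM, and the strand setting of the counting was not given in the sources used here.

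**Figure D1:**
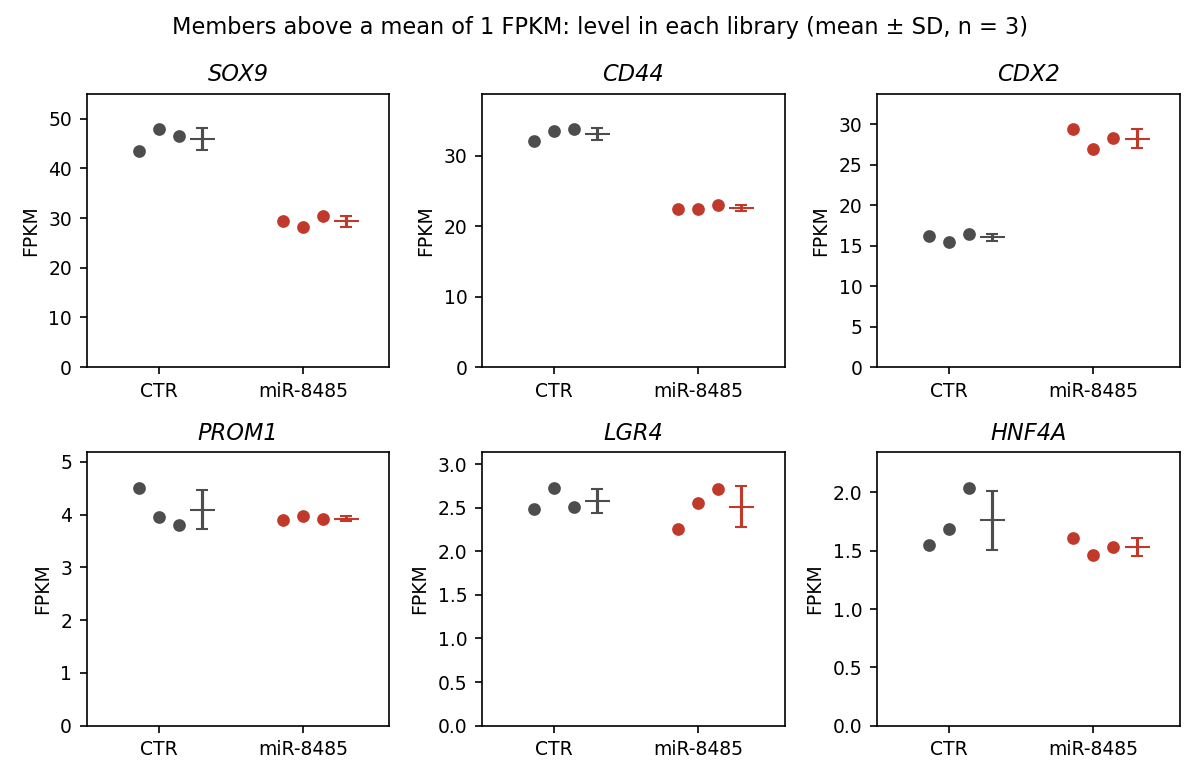
FPKM of the 6 genes with a mean of at least 1 FPKM, each panel with its own linear axis from 0. Points are the 3 libraries of CTR (grey) and of miR-8485 (red), and the bar beside them is the mean ± SD. The libraries of SOX9 and CD44 are lower and those of CDX2 higher in miR-8485 with no overlap, while those of PROM1, LGR4 and HNF4A overlap.

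LGR4, PROM1 and HNF4A had values that overlapped between the groups. LGR4, the R-spondin receptor with the broader expression of the 2, had 2.48, 2.73 and 2.51 FPKM in CTR and 2.26, 2.56 and 2.72 FPKM in miR-8485. Its log2 fold change was -0.04 with a 95% interval from -0.27 to 0.19 (adjusted p = 0.765 in limma), so the 2 copies of the seed site in its 3′ UTR went with no detectable change of this gene. It was measured from 885 fragments in CTR and 879 in miR-8485.

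PROM1 had 4.51, 3.96 and 3.81 FPKM in CTR and 3.89, 3.97 and 3.91 FPKM in miR-8485. The miR-8485 libraries lay within the range of the CTR libraries. The log2 fold change was -0.06 (95% interval -0.24 to 0.13, adjusted p = 0.563 in limma). Of the 3 surface proteins among the stem cell genes that were tested, CD44 was the one called.

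HNF4A, the nuclear receptor, was the lowest of the tested genes, with 1.55, 1.69 and 2.04 FPKM in CTR and 1.61, 1.46 and 1.53 FPKM in miR-8485. Its log2 fold change was -0.18, and the wide interval, from -0.50 to 0.14, includes falls nearly as large as that of CD44 (adjusted p = 0.291 in limma). The 2 tested differentiation factors therefore gave a called rise for CDX2 and a value on the other side of 0, not past the threshold, for HNF4A.

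**Figure D2:**
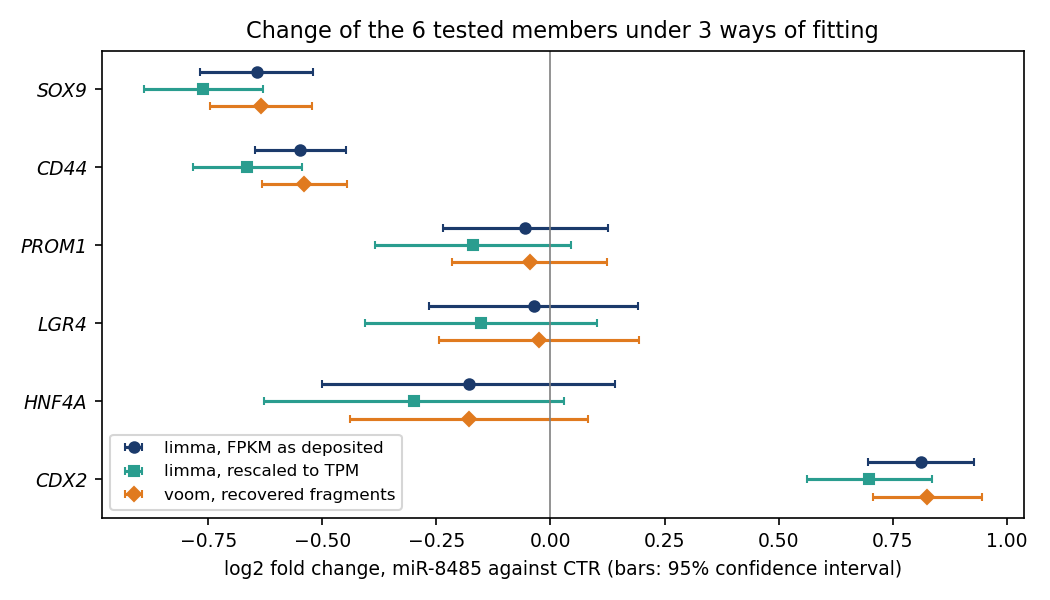
Log2 fold changes of the 6 tested genes (x axis, miR-8485 against CTR) with 95% confidence intervals, from limma on the FPKM as deposited, limma after rescaling to TPM and voom on the recovered fragments. SOX9, CD44 and CDX2 stay clear of 0 under each, and the intervals of PROM1, LGR4 and HNF4A include 0.

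Each FPKM above 0 equals a whole number of fragments, so the fragments behind the low genes were recovered. Of the 4 genes below 1 FPKM, none had more than 5 fragments in a library. These were taken from the same limma fit over all 31768 genes above 0, in which 22.1% of the genes were called (10.8% higher and 11.3% lower), and 3.72% of the 19419 genes below the filter. None of the 4 was called. The unadjusted p was under 0.05 for 1 of them, LGR5, which voom called.

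LGR5, the defining marker of crypt base stem cells, had 0, 1 and 0 fragments in CTR, and after the mimic 4, 3 and 3. The groups did not overlap, as for 34.6% of all genes above 0 (17.7% higher and 16.9% lower). That share includes the genes with a mean of at least 1 FPKM, of which 66.5% did not overlap. Among genes below the filter, such as LGR5, it is therefore lower. The ratio of the summed fragments, 10 against 1, was 9.86 with an exact 95% interval from 1.40 to 428, which covers counting error only. In limma the log2 fold change was 0.38 (adjusted p = 0.154), a scale on which a pseudocount of 0.1 outweighs levels of at most 0.0424 FPKM. The call depended on the method. Voom on the recovered fragments of all genes above 0 gave a log2 fold change of 2.37 (adjusted p = 0.0208), and limma without a variance trend gave an adjusted p of 0.0389. Over all alternatives the adjusted p ran from 0.0208 to 0.288. In the gene table the first 2129 bases of LGR5, on the plus strand of chromosome 12 (71439770 to 71586310), overlap TSPAN8, a tetraspanin gene on the minus strand. TSPAN8 had 2.09, 2.22 and 2.46 FPKM in CTR and 10.8, 9.70 and 11.4 FPKM in miR-8485, and rose by 2.19 on the log2 scale (adjusted p = 2.7e-06 in limma). Without the strand, reads of the 2 genes in the shared stretch cannot be told apart, and whether the fragments of LGR5 came from it was not tested.

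ASCL2, the WNT-driven stem cell factor on chromosome 11 (2268495 to 2270952), had 0 fragments in all CTR libraries and 1, 1 and 0 in miR-8485. CDX1, on chromosome 5 (150166795 to 150184558), had 0 in all CTR libraries and 0, 1 and 0 in miR-8485. A count of 0 allows up to 3 fragments, and both genes stayed below that in both groups, so no fold is given. ATOH1, the secretory factor on chromosome 4 (93828753 to 93830964), had 5, 2 and 0 fragments in CTR and 0, 4 and 2 in miR-8485, with a ratio of the sums of 0.845 (exact 95% interval 0.235 to 2.94). A difference in these 3 genes was not detectable at this depth.

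**Figure D3:**
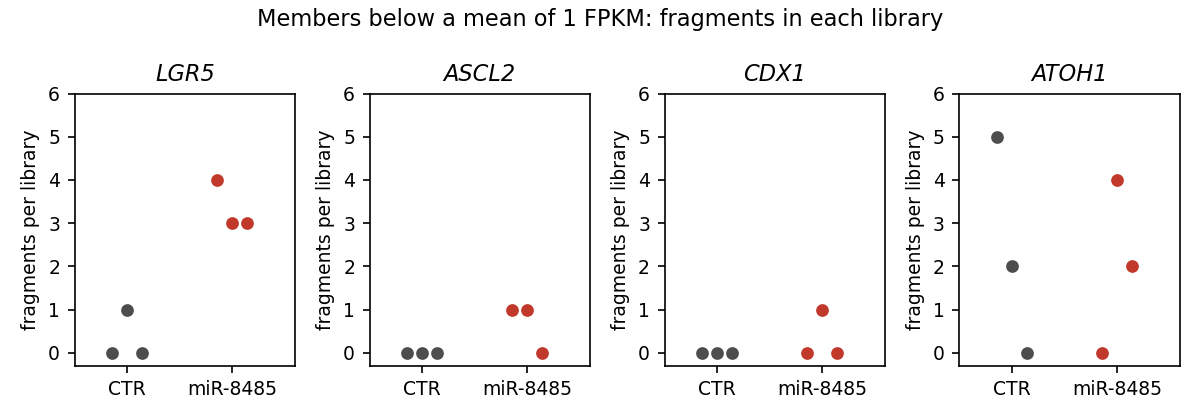
Fragments per library (y axis) of the 4 genes below a mean of 1 FPKM, with 3 libraries of CTR (grey) and 3 of miR-8485 (red). LGR5 has 3 or 4 fragments in each miR-8485 library and at most 1 in CTR, and ASCL2, CDX1 and ATOH1 overlap between the groups.

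In CTR the order of the levels was SOX9, CD44, CDX2, PROM1, LGR4, HNF4A and ATOH1, followed by LGR5, with ASCL2 and CDX1 at 0. The ranges of the libraries were separate for each pair of neighbours down to HNF4A and ATOH1, and overlapped from ATOH1 on. In miR-8485 CDX2 stood above CD44, with 28.2 against 22.6 FPKM. The range of CDX2, 27.0 to 29.4 FPKM, overlapped that of SOX9, 28.2 to 30.4 FPKM. The gene length behind the FPKM was 10004 bases for CD44 and 4122 for CDX2. Summed over the miR-8485 libraries, CD44 had more fragments than CDX2, 12478 against 6411. The place of CDX2 above CD44 therefore rests on these lengths. The ratio of CDX2 to SOX9 within a library was 0.373, 0.323 and 0.353 in CTR and 0.995, 0.959 and 0.928 in miR-8485. SOX9 and CD44 fell by similar amounts, and their ratio moved less, from 1.39 ± 0.0371 (SD, n = 3) to 1.30 ± 0.0366 (SD, n = 3). A ratio within a library does not depend on the scaling between libraries.

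**Figure D4:**
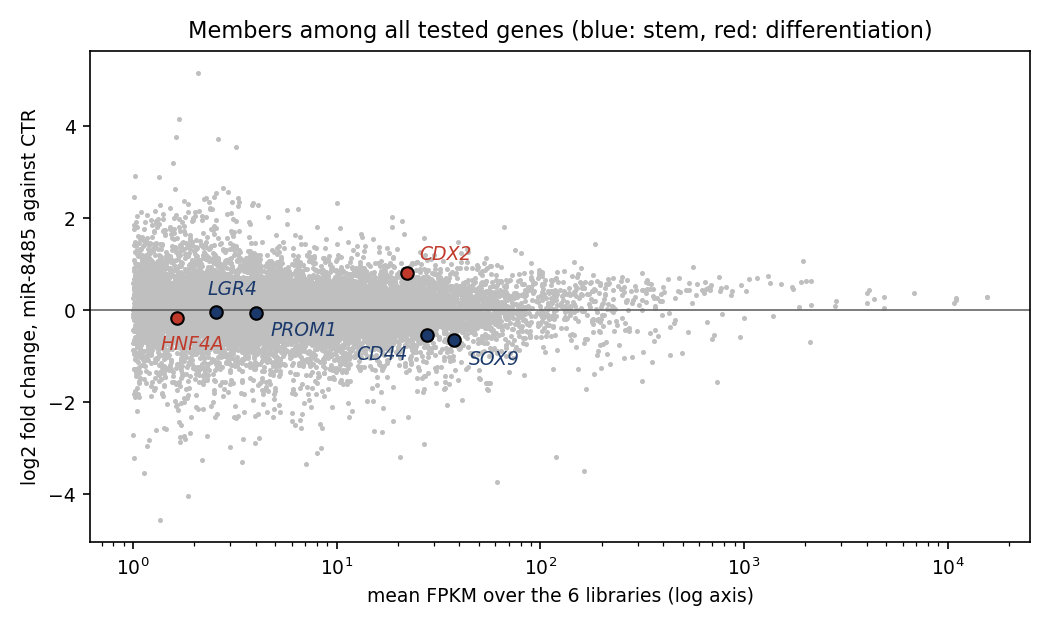
Log2 fold change (y axis) against the mean FPKM over the 6 libraries (x axis, log scale) for the 12349 tested genes in grey, with the 4 tested stem cell genes in blue and the 2 tested differentiation factors in red. CDX2 lies at 0.81 and SOX9 and CD44 at -0.64 and -0.55, within the cloud of the other genes.

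Genes whose libraries followed CDX2 and SOX9 most closely were sought among the protein-coding genes tested, by the root mean square distance of log2(FPKM + 0.1) relative to the CTR mean over the 6 libraries. For CDX2 these were BAX, the pro-apoptotic member of the BCL2 family (distance 0.0308, from 19.9 to 35.1 FPKM), SAMD4A (0.0325, from 0.861 to 1.61 FPKM) and NAT9 (0.0330, from 12.3 to 22.2 FPKM). For SOX9 they were FAM114A1 (0.0224, from 8.98 to 5.72 FPKM), FZD1, a WNT receptor (0.0266, from 3.78 to 2.39 FPKM), and PHF19 (0.0300, from 4.66 to 2.95 FPKM). With 2 groups, such likeness reflects mainly a fold change of the same size. SAMD4A passed the filter of 1 FPKM only through its level in miR-8485.

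Around these factors, genes of the crypt base and progenitors moved in both directions, as tested genes at large did. Of 23 listed genes, 14 were tested, of which 3 rose, 5 fell and 6 were not past the threshold, with a median log2 fold change of -0.07. Over all tested genes, 29.1% were called higher and 30.5% lower, which is the background for this list and those below. EPHB3 and EPHB2, receptors that position cells along the crypt, fell by 1.54 and 0.60 on the log2 scale (adjusted p = 9.6e-06 and 0.00131 in limma), EPHB3 from 6.42 ± 0.499 FPKM to 2.14 ± 0.138 (SD, n = 3). ALCAM, an adhesion molecule, fell by 0.64 and SLC12A2, a chloride cotransporter, by 0.47. SOX4, a transcription factor of progenitors, had 38.9, 42.0 and 42.6 FPKM in CTR and 78.1, 83.3 and 81.8 FPKM in miR-8485, and rose by 0.98 on the log2 scale (adjusted p = 7.9e-06 in limma), opposite to SOX9. MEX3A, an RNA-binding protein of slow-cycling crypt cells, and CD24 rose by 0.75 and 0.52. OLFM4, often used beside LGR5 as a stem cell marker, had 1 fragment in CTR replicate 2 and 0 in the other 5 libraries. TNFRSF19, below the filter, was called lower in the fit of all genes above 0 (log2 fold change -0.91, adjusted p = 0.0428 in limma).

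The pathway that acts through LGR4 and LGR5 was listed as 15 genes, of which 11 were tested, 3 rose, 5 fell and 3 were not past the threshold (median log2 fold change -0.14). Over all tested genes the called share was 59.6%. RNF43 and ZNRF3, the ligases that remove WNT receptors and are restrained by R-spondins, had 6.82 and 6.78 FPKM in CTR and 7.14 and 6.65 FPKM in miR-8485 (adjusted p = 0.383 and 0.811 in limma). FZD5, a WNT receptor, fell from 3.98 ± 0.0391 to 0.855 ± 0.0155 FPKM (SD, n = 3), or by 2.09 on the log2 scale (adjusted p = 4.9e-06 in limma). It passed the filter of 1 FPKM through CTR only. NOTUM, a WNT inhibitor, the coreceptor LRP5 and the receptor FZD7 fell by 0.26, 0.22 and 0.21. CTNNB1, which encodes beta-catenin, fell by 0.20, from 34.7 to 30.3 FPKM (adjusted p = 0.00292 in limma), a call kept in all 16 alternatives. AXIN2 rose by 0.50, MYC by 0.27 and the transcription factor TCF7L2 by 0.19 (adjusted p = 0.00118, 0.00701 and 0.0197 in limma). Known targets of the pathway thus went both ways, since AXIN2 and MYC rose while NOTUM, EPHB2, EPHB3, CD44 and SOX9 fell, and RNF43 and ZNRF3 were not past the threshold. NKD1, another target, just below the filter in its mean, was at 1.07 FPKM in CTR and 0.690 FPKM in miR-8485 (adjusted p = 0.0741 in the limma fit of all genes above 0). Among the R-spondins, RSPO4 was called in the fit of all genes above 0, from 19, 20 and 21 fragments in CTR to 43, 54 and 49 in miR-8485 (log2 fold change 1.08, adjusted p = 0.0107 in limma). RSPO1 had 11, 3 and 3 fragments in CTR and 0 in each miR-8485 library, and was not called (log2 fold change -0.94, adjusted p = 0.0842 in limma). RSPO2 and RSPO3 were not called either (adjusted p = 0.587 and 0.540 in limma). FZD7 was not past the threshold without CTR replicate 2 (adjusted p = 0.0640), CTR replicate 3 (0.0802) or miR-8485 replicate 1 (0.0745), nor NOTUM without CTR replicate 2 (0.0648), miR-8485 replicate 1 (0.0744) or miR-8485 replicate 2 (0.0822), so that 3 genes fell without CTR replicate 2 or without miR-8485 replicate 1. TCF7L2 was not called without miR-8485 replicate 2 (0.0667) or after rescaling to TPM (0.343), and MYC was not called after quantile normalization (0.0512).

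Notch signalling, which restrains ATOH1 through HES1, was listed as 18 genes, of which 15 were tested, 4 rose, 6 fell and 5 were not past the threshold (median -0.12). Of all tested genes, 59.6% were called. HES1, the repressor of ATOH1, fell from 21.7 ± 0.815 to 13.2 ± 0.601 FPKM (SD, n = 3), or by 0.71 on the log2 scale (adjusted p = 3.5e-05 in limma), while ATOH1 itself stayed at 5 fragments or fewer in each library. The receptors NOTCH2 and NOTCH1 fell by 0.65 and 0.48, and ADAM17, a protease that cleaves Notch, fell by 0.48. HES4 rose by 0.51, NCSTN, a subunit of the gamma-secretase complex, by 0.33, and the ligands JAG1 and JAG2 by 0.24 each. The calls of JAG1 and JAG2 were lost after rescaling to TPM (adjusted p = 0.117 and 0.0970 in limma), where 2 of the 15 genes were called higher.

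Other transcription factors of the gut epithelium numbered 24 in the list and 12 in the test, of which 2 rose, 4 fell and 6 were not past the threshold (median -0.10). The called share over all tested genes was 59.6%. KLF4, a factor of differentiated goblet cells and colonocytes, fell from 19.6 ± 0.373 to 9.79 ± 0.867 FPKM (SD, n = 3; adjusted p = 2.5e-05 in limma). PRDM1, ELF3 and PPARG fell by 0.91, 0.63 and 0.38. PRDM1 passed the filter of 1 FPKM only through CTR, with a mean of 1.37 FPKM there and 0.685 FPKM in miR-8485. GRHL2, an epithelial factor, rose by 0.59, and the vitamin D receptor VDR by 0.20, but the call of VDR (adjusted p = 0.0405 in limma) was lost without any 1 library other than CTR replicate 3, with adjusted p from 0.0797 to 0.103. GATA4 and MAF were at 0 in all libraries. CREB3L3, below the filter, was called lower in the fit of all genes above 0 (log2 fold change -1.95, adjusted p = 0.0308 in limma). KLF5, which marks proliferating crypt cells, was at 34.3 to 35.3 FPKM in CTR and 35.1 to 36.9 FPKM in miR-8485 (adjusted p = 0.393 in limma).

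Most genes for products of differentiated cells were below 1 FPKM. Of 30 genes of absorptive colonocytes, 4 were tested, 22 lay below 1 FPKM and 4 were at 0 in all libraries, among them FABP1 and GUCA2A. CDH17 and VIL1, both known targets of CDX2 in the intestine, had at most 12 and 8 fragments in any library (adjusted p = 0.968 and 0.819 in the limma fit of all genes above 0). KRT20, a keratin of the upper crypt, rose from 0.841, 0.838 and 0.509 FPKM to 2.56, 2.19 and 1.31 FPKM (log2 fold change 1.33, adjusted p = 0.00578 in limma). Its CTR mean, 0.730 FPKM, lay below the filter of 1 FPKM, so KRT20 passed it only through its level in miR-8485. These values rest on 28, 28 and 17 fragments in CTR and 85, 73 and 46 in miR-8485. CA2, a carbonic anhydrase, fell from 40.5 ± 2.37 to 15.6 ± 0.770 FPKM (SD, n = 3), or by 1.37 on the log2 scale (adjusted p = 4.1e-06 in limma). MUC13, just below the filter, had a log2 fold change of -0.91 in the fit of all genes above 0 (adjusted p = 0.0171 in limma) and passed the filter without miR-8485 replicate 1 or 2, where 2 genes of this list were called lower. Of 27 genes of secretory cells, 2 were tested, 18 lay below 1 FPKM and 7 were at 0, among them TFF3, CLCA1 and NEUROG3. GFI1, a factor that acts after ATOH1, fell from 2.26 ± 0.223 to 1.41 ± 0.142 FPKM (SD, n = 3), or by 0.65 on the log2 scale (adjusted p = 0.00357 in limma). MUC2, the main gel-forming mucin, had 6, 7 and 13 fragments in CTR and 2, 0 and 3 in miR-8485, and was not called (adjusted p = 0.226 in limma). FCGBP, another goblet cell product below the filter, was called higher in the fit of all genes above 0 (log2 fold change 0.89, adjusted p = 0.0351 in limma).

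**Figure D5:**
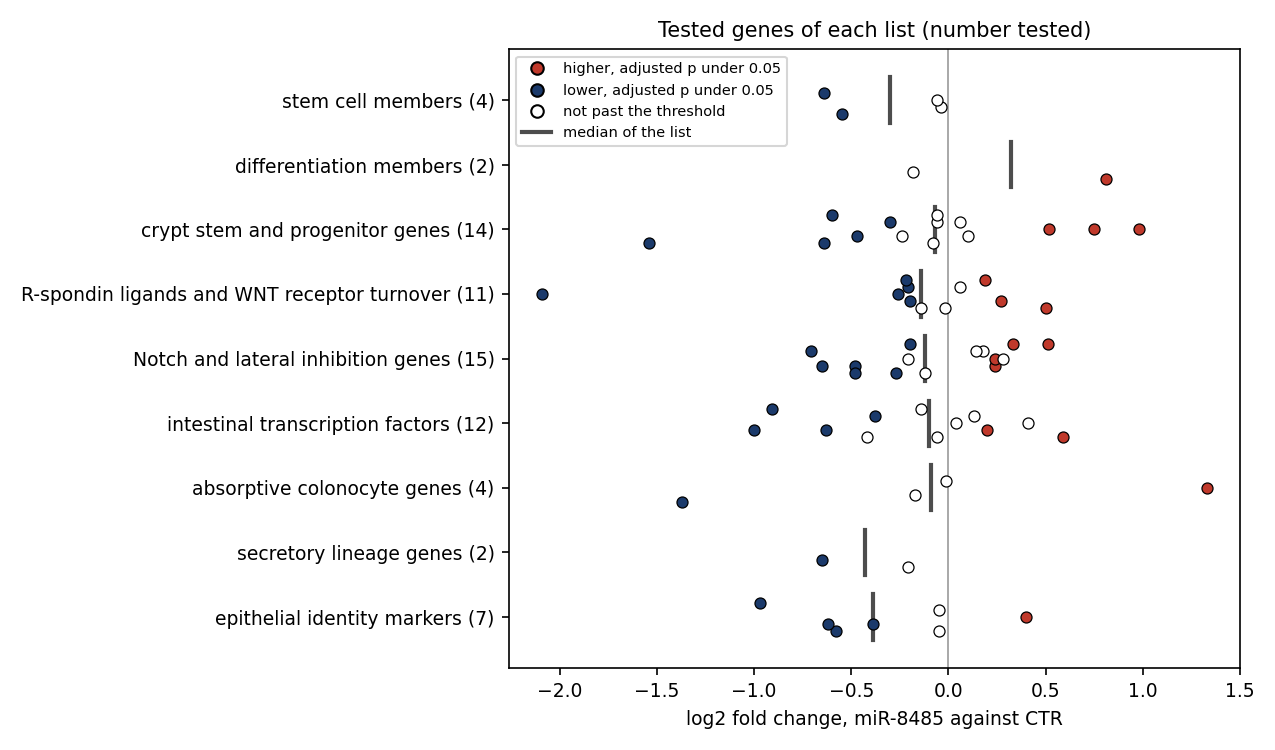
Log2 fold change (x axis, miR-8485 against CTR) of the tested genes of each list (rows, with the number tested). Filled points are past the threshold (red higher, blue lower), open points are not, and the dark bar is the median of the list. The lists of crypt, WNT and Notch genes hold called genes on both sides of 0. Over all tested genes, 29.1% were called higher and 30.5% lower.

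The libraries carried the markers of an epithelial line. All 7 epithelial markers were expressed, with EPCAM at 135 and 130 FPKM and CDH1 at 19.7 and 19.0 FPKM in CTR and miR-8485. Of the 7, KRT18, KRT8, KRT19 and CLDN4 fell and CLDN7 rose, and the summed level of the list was 2739 to 2971 FPKM in CTR and 1863 to 1953 FPKM in miR-8485. KRT8, KRT18 and KRT19 thus moved in the direction of SOX9 and CD44, unlike KRT20, and their part in the results above was not tested. Of 14 markers of fibroblasts, endothelium, leukocytes and red cells, 13 lay below 1 FPKM, 2 of them at 0 in all libraries. The other, COL1A1, a collagen of fibroblasts, rose from 4.25 ± 0.173 to 6.31 ± 0.0770 FPKM (SD, n = 3), or by 0.56 on the log2 scale (adjusted p = 1.3e-04 in limma). The summed level of the 14 markers was 4.83 to 5.27 FPKM in CTR and 6.82 to 7.06 FPKM in miR-8485, and its part in the results above was not tested. Without COL1A1, the sum was 0.532 to 0.889 FPKM in CTR and 0.546 to 0.796 FPKM in miR-8485.

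Rescaling to TPM, which sets the sum of the length-scaled values equal in all libraries, moved the median log2 fold change of the tested genes to -0.12. It gave 2613 genes higher and 4725 lower, against 3593 and 3769 with the FPKM as deposited. On that scale SOX9 was at -0.76, CD44 at -0.66 and CDX2 at 0.70, all 3 still called. None of the genes called in the lists changed sign under any of the alternatives in which it was tested.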

How the data were processed

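The data are 6 RNA-seq libraries from HCT116 cells, grouped by sample title. The authors trimmed reads (fastp), aligned them with HISAT2 2.0.5 to hg38, counted fragments per gene with featureCounts 1.5.0-p3 (versions per the submitters' processing notes) and deposited FPKM values. The main test used these values as deposited and added no scaling between libraries. The annotation release and strand setting were not given in the sources used here. In every library 100% of the values above 0 were whole multiples of 1 fragment (tolerance 0.02 fragments), which gave the depth.

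Differential expression was tested with limma 3.58.1 in R 4.3.3 on log2(FPKM + 0.1), with a variance trend and a two-sided test, keeping 12349 genes whose mean was at least 1 FPKM, since the deposited unit is FPKM and not the counts that the study tested. Values for genes below the filter come from fitting the 31768 genes above 0. As alternatives, the pseudocount was set to 1 or 0.01, the filter was dropped or raised to 5 FPKM, and the fit was repeated with median-of-ratios scaling, TPM, quantile normalization, no variance trend, voom on recovered fragments, a replicate block and each library left out. Voom over all genes above 0 was added after the values were seen. The scripts were tested on simulated data.

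All 10 genes were described. In the other lists, up to 4 called genes in each direction without overlap between groups were named, as well as genes at 0, and 3 genes most like the member with the largest rise and that with the largest fall. Genes below the filter, genes not called, genes that overlap a member and CTNNB1 were named after their values were seen. The members and lists were chosen with earlier results of these data known. 3′ UTRs were those of GENCODE release 44 canonical transcripts. Python 3.11.15 (scipy 1.17.1, pandas 2.3.3, numpy 2.4.6) served for the other calculations.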

Additional observations from a re-analysis of the deposited data

How the results depend on the processing

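CDX2, SOX9 and CD44 kept their direction and their call in all 16 alternatives, with log2 fold changes of 0.70 to 0.84, -0.76 to -0.61 and -0.66 to -0.53, and the number of the 10 genes called was 1 higher and 2 lower in each. HNF4A kept its sign in 15 (-0.30 to -0.07). The cause of the following changes was not tested unless the setting itself removes genes. LGR5 was called without a variance trend (0.38, adjusted p = 0.0389) and in voom over all genes above 0 (2.37, adjusted p = 0.0208). Leaving out 1 library moved values that were not called across 0, with LGR4 between -0.09 and 0.04 (0.00 without CTR replicate 2 and 0.04 without miR-8485 replicate 1), PROM1 between -0.10 and 0.01 (0.01 without CTR replicate 1) and ATOH1 between -0.36 and 0.23 (0.23 without CTR replicate 1 and 0.19 without miR-8485 replicate 1).

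The filter at 5 FPKM left 6878 genes, with 2303 higher and 2417 lower, and 3 crypt genes lower, 1 intestinal factor higher, 0 absorptive genes higher and 0 secretory genes lower. LGR4, PROM1, HNF4A and the low genes have no value there. With no filter, 3 WNT genes were lower, 1 intestinal factor higher, 2 absorptive genes lower and 1 secretory gene higher. After rescaling to TPM, 2 Notch genes and 1 intestinal factor were higher, and 2 absorptive and 2 secretory genes lower. Notch genes called higher numbered 7 both in quantile normalization and in voom. Without a variance trend, 2 absorptive and 2 secretory genes were lower. With each library left out, WNT genes called lower numbered 3 to 5, intestinal factors called higher 1 to 2 and absorptive genes called lower 1 to 2.

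With the replicate number as a block, 3634 genes were higher and 3754 lower, and intestinal factors called higher numbered 1 (adjusted p = 0.0566 for VDR). The values showed no sign of a pairing by number, but weak correlations cannot decide whether same-numbered cultures were made together. The deviations of same-numbered libraries from their group means correlated at 0.067, 0.033 and -0.064, and not every library correlated best with its own number. The block changed no call of the 10 genes. Depth limits LGR5, ASCL2, CDX1 and ATOH1, which had 5 fragments or fewer in each library.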

Other observations

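SOX genes encode transcription factors with a shared DNA-binding domain, and SOX9 was set beside the others of the family by symbol, a list chosen after the values were seen. Of 19 SOX genes listed, 7 were tested, 5 lay below 1 FPKM and 7 were at 0 in all libraries. Of the 7 tested, 3 were higher and 2 lower in miR-8485, and 2 were not past the threshold. Of all tested genes, 29.1% were called higher and 30.5% lower. SOX9 and SOX13 fell, SOX13 from 6.90 ± 0.449 to 5.42 ± 0.333 FPKM (SD, n = 3), with a log2 fold change of -0.34 (adjusted p = 0.00483 in limma). SOX4 and SOX12, which are close relatives within the family, rose by 0.98 and 0.68 on the log2 scale, SOX12 from 10.9 ± 0.510 to 17.5 ± 0.640 FPKM (SD, n = 3). SOX8, a relative of SOX9, rose by 0.24 (adjusted p = 0.0108 in limma), a call that was lost after rescaling to TPM (log2 fold change 0.13, adjusted p = 0.108). SOX15 and SOX18 had log2 fold changes of -0.06 and 0.02 (adjusted p = 0.899 and 0.926 in limma). SOX4 was the most abundant of the family in miR-8485, at 81.1 ± 2.63 FPKM (SD, n = 3) against 29.4 ± 1.14 FPKM (SD, n = 3) for SOX9, whereas in CTR the libraries of SOX4, 38.9 to 42.6 FPKM, lay below those of SOX9, 43.6 to 47.9 FPKM.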
